A study of Mus musculus with 5 samples.

Results

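The enzymes of the folate cycle, which exist as a cytosolic and a mitochondrial set, were followed across mouse fibroblasts and pluripotent stem cells. They were 8 of the 24421 genes in each of the deposited tables and were listed by name as enzymes of this pathway, with earlier results of these data known. The cytosolic set held Shmt1, Mthfd1 and Aldh1l1, and the mitochondrial set held Shmt2, Mthfd1l, Mthfd2, Mthfd2l and Aldh1l2. All 8 genes had a row in both tables.

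RNA-seq was performed on 5 libraries, 1 for each kind of cell. MEFs were mouse embryonic fibroblasts, obtained per the study's methods from mid-gestation embryos of CF-1 mice and grown in medium with fetal bovine serum. iPSCs were 1 induced pluripotent stem cell line obtained from a cell bank, and mESCs were untreated cells of the embryonic stem cell line V6.5. The other two libraries came from V6.5 cells stably expressing either a non-targeting control shRNA (NTC) or an shRNA against Gldc (shGldc), the decarboxylase of the glycine cleavage system. The growth protocol given with the samples describes pluripotent cells without feeder cells, in medium with serum replacement and LIF. The study's methods also describe culture on feeder cells and do not say which gave these libraries. The methods name no mouse strain for the pluripotent cells. Cell type, mouse background and medium cannot be told apart in a comparison with MEFs. Values were in FPKM, a fragment count scaled to the length of the transcript and the size of the library, so levels of different genes in a library can be compared. MEFs, iPSCs and mESCs were in a first table, and NTC and shGldc in a second table made separately. With 1 library a group there is no replicate error, no test was possible and no p-value is given.

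Folate carries single carbon units bound to tetrahydrofolate (THF). In mitochondria, serine is split to glycine and the carbon is passed along a chain of enzymes to formate, which leaves for the cytosol, where it is attached to THF again and used for purines, thymidylate and methyl groups. Glycine cleavage, in which Gldc acts, feeds carbon into the same mitochondrial pool. The cytosolic enzymes can run in either direction, and in many proliferating cells the mitochondrial route is the main supplier of carbon.

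The promoters are given as sequence context of the genes. RefSeq start sites on build GRCm38.p6 gave a promoter for 7 of the 8 genes, all but Aldh1l2. In the 250 bases before the start, 9 short motifs were searched on both strands. They were the TATA box (TATAAA), the NF-Y core (CCAAT), the GC box (GGGCGG), the E-box (CACGTG), the NRF1 palindrome (CGCATGCG), the ATF4 composite element (TGATGNAA), the octamer (ATGCAAAT) and both E2F forms (TTTGGCGC as well as TTTCCCGC). The stretches of 110 bases just before the start are shown for the 3 cytosolic genes and for Shmt2 and Mthfd2, 2 abundant mitochondrial genes, read 5′ to 3′ along the gene's strand, with matches to the NF-Y core, the GC box or the NRF1 palindrome in capitals (ATTGG is the NF-Y core, and CCGCCC the GC box, on the other strand).
Shmt1 (chr11:60811266-60811375, minus strand): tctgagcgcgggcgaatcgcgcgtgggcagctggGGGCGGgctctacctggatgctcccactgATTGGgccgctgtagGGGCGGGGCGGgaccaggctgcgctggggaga
Mthfd1 (chr12:76255122-76255231, plus strand): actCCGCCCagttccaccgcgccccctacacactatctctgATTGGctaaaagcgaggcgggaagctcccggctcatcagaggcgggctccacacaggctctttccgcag
Aldh1l1 (chr6:90550683-90550792, plus strand): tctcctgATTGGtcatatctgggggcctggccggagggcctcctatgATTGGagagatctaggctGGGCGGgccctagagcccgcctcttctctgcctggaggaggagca
Shmt2 (chr10:127522445-127522554, minus strand): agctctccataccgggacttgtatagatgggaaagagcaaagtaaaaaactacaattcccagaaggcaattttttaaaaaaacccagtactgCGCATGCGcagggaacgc
Mthfd2 (chr6:83317605-83317714, minus strand): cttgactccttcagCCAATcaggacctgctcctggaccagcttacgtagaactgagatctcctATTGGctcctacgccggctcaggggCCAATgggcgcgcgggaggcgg

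All 3 cytosolic promoters held both the CCAAT core, bound by the factor NF-Y, and the GC box GGGCGG, bound by Sp1. CCAAT was present in 33.8% and GGGCGG in 32.7% of 32851 promoters of the same length, and 11.0% of them held both. The plan took each motif alone, and the count of this pair was added to it. Shmt1 held 4 GGGCGG matches, 2 of which overlapped by a base, and 1 CCAAT. Of the mitochondrial genes, Mthfd2 held 3 CCAAT and no GGGCGG, Mthfd1l held 1 GGGCGG, and Mthfd2l held neither. Shmt2 held CGCATGCG, the palindrome bound by NRF1, from 18 to 11 bases before its start, which 1.55% of all promoters hold. The RefSeq starts of Shmt1, Aldh1l1, Mthfd2 and Mthfd2l lie inside the gene models used for coordinates below. The other 6 motifs had no match in these 7 windows. A match describes letters only, and binding was not measured.

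Library totals bear on how far the values can be read. The step between the lowest FPKM values gave about 22200000 to 29100000 fragments a library, with a 2-fold doubt for NTC and shGldc. Low values were scarcer in the second table, where 155 to 176 single-transcript genes lay at 1 to 3 fragments against 671 to 783 in the first. All 10 pluripotency markers reached an FPKM of 1 in each pluripotent library, against 1 of 10 in MEFs. All 10 fibroblast markers did so in MEFs, and their summed FPKM was 7433 there against 7.75 to 55.7 in the pluripotent libraries, highest in mESCs. MEFs also carried macrophage genes, with 9 of 10 reaching an FPKM of 1 and a sum of 334.3 against 11.0 to 20.9 elsewhere. Most of the sum elsewhere was Cd68, at 19.9 in iPSCs, 9.04 in mESCs, 13.0 in NTC and 12.7 in shGldc. The level of Gldc was 0.123 FPKM in MEFs, 70.8 in iPSCs, 59.7 in mESCs, 74.7 in NTC and 2.07 in shGldc.

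**Figure D1:**
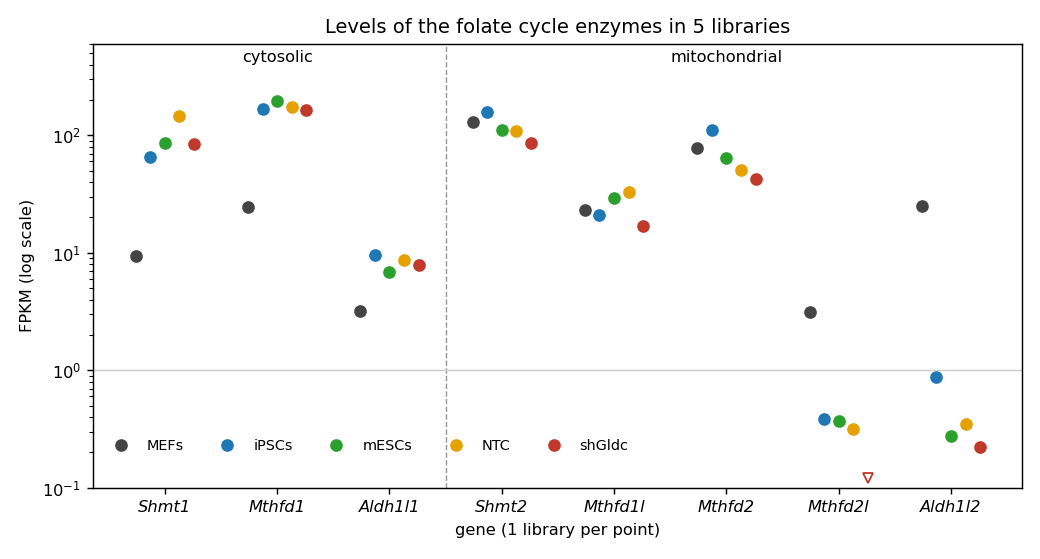
FPKM of the 8 folate cycle genes in the 5 libraries, on a log axis, with 1 point for each library and gene and no error bars since each group was 1 library; the open triangle marks a listed 0. The 3 cytosolic genes were lowest in MEFs, Mthfd2l and Aldh1l2 were highest in MEFs, and Shmt2, Mthfd1l and Mthfd2 had MEFs within the range of the pluripotent libraries.

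The 3 cytosolic enzymes were all lower in MEFs than in each pluripotent library. In bulk RNA, fewer cells with a transcript and less transcript per cell cannot be told apart. The study made this comparison to ask whether stem cells and somatic cells differ in metabolism. Both comparisons below use the same MEF library, so they are not independent, and a log2 ratio is a difference of log2(FPKM + 0.1), while a fold is the plain ratio of FPKM values and is larger than the log2 ratio gives where a value is low. Genes entered a comparison if they reached an FPKM of 1 in either of its libraries, and a gene at least 2-fold apart was counted as higher or lower.

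Shmt1, the cytosolic serine hydroxymethyltransferase that moves a carbon from serine to THF, lies on the minus strand of chromosome 11 (60788104 to 60811718 on mm10, 12 exons, a transcript of 2858 nt). Its FPKM was 9.41 in MEFs, 66.1 in iPSCs, 86.3 in mESCs, 145.1 in NTC and 84.2 in shGldc. Every pluripotent library was above MEFs, and NTC stood above the other three. The level in mESCs was 9.17-fold that in MEFs (log2 ratio 3.18, 95% interval 8.46 to 9.95 fold) and the level in iPSCs was 7.02-fold (2.80, 6.47 to 7.63 fold). These intervals come from the estimated fragments and cover counting error only, not the spread between cultures. Of the exon bases of Shmt1, 6.44% overlap Smcr8, a gene with an FPKM of 2.40 to 7.05.

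Mthfd1, the trifunctional cytosolic enzyme that attaches formate to THF and interconverts formyl-, methenyl- and methylene-THF, lies on the plus strand of chromosome 12 (76255298 to 76319803, 28 exons, 3241 nt). Its FPKM was 24.8 in MEFs, 167.7 in iPSCs, 194.5 in mESCs, 176.1 in NTC and 164.1 in shGldc. The 4 pluripotent libraries lay close together and far above MEFs, and Mthfd1 was the most abundant of the 8 genes in each of them. The ratio to MEFs was 7.85-fold in mESCs (log2 2.97, counting interval 7.49 to 8.23 fold) and 6.77-fold in iPSCs (2.75, 6.46 to 7.11 fold).

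Aldh1l1, the cytosolic formyl-THF dehydrogenase that releases the carbon as carbon dioxide, lies on the plus strand of chromosome 6 (90486427 to 90600203, 23 exons, 3052 nt). It was the least abundant cytosolic member, with an FPKM of 3.19 in MEFs, 9.67 in iPSCs, 6.86 in mESCs, 8.71 in NTC and 7.83 in shGldc. It was 3.03-fold higher in iPSCs than in MEFs (log2 1.57, counting interval 2.61 to 3.53 fold). In mESCs it was 2.15-fold higher (1.08, 1.84 to 2.52 fold), which is near the 2-fold line. The median log2 ratio of all genes was 0.25 in mESCs over MEFs and 0.31 in iPSCs over MEFs, and relative to these shifts Aldh1l1 was at 0.83 in mESCs, under the line, and at 1.26 in iPSCs.

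The mitochondrial members did not move together. Shmt2, the mitochondrial serine hydroxymethyltransferase at the entry of the route, is on the minus strand of chromosome 10 (127517123 to 127522444, 12 exons, 2289 nt). Its FPKM was 129.6 in MEFs, 157.4 in iPSCs, 111.4 in mESCs, 108.5 in NTC and 86.6 in shGldc. MEFs fell within the range of the pluripotent libraries, and Shmt2 was the most abundant of the 8 genes in MEFs. Against MEFs, mESCs were at a log2 ratio of -0.22 and iPSCs at 0.28, and the latter became -0.03 relative to the median of all genes. Of the 50-nt stretches in Shmt2, 1.78% also occur in Gm15544.

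Mthfd2, the dehydrogenase and cyclohydrolase that turns methylene-THF into formyl-THF in mitochondria, is on the minus strand of chromosome 6 (83305691 to 83325908, 8 exons, 2085 nt). Its FPKM was 78.8 in MEFs, 111.6 in iPSCs, 64.2 in mESCs, 50.9 in NTC and 42.6 in shGldc. iPSCs were the highest library and the 3 V6.5 libraries were the lowest, with MEFs between them. Against MEFs, mESCs were at a log2 ratio of -0.30 and iPSCs at 0.50, neither past the 2-fold line.

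Mthfd1l, the mitochondrial formyl-THF synthetase that releases formate, is on the plus strand of chromosome 10 (3973118 to 4167081, 28 exons, 3687 nt). Its FPKM was 23.1 in MEFs, 20.8 in iPSCs, 29.1 in mESCs, 32.9 in NTC and 17.0 in shGldc. MEFs and iPSCs were close, with a log2 ratio of -0.15, and mESCs were at 0.33 over MEFs.

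Mthfd2l, a close relative of Mthfd2 with the same kind of activity, is on the plus strand of chromosome 5 (90931117 to 91021368, 8 exons, 2159 nt). It was low everywhere, with an FPKM of 3.14 in MEFs, 0.381 in iPSCs, 0.371 in mESCs and 0.318 in NTC, and it was listed at 0 in shGldc. The value in MEFs corresponds to about 166.6 fragments and those in iPSCs and mESCs to about 18.3 and 19.8. MEFs thus stood alone, 8.48-fold above mESCs (counting interval 5.32 to 14.2 fold) and 8.23-fold above iPSCs. The log2 ratio to MEFs, -2.78 in mESCs and -2.75 in iPSCs, was -1.60 and -1.58 with a pseudocount of 1, and the gene did not reach an FPKM of 5 in any library. Of the 50-nt stretches in Mthfd2l, 4.36% also occur in Gm14942.

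Aldh1l2, the mitochondrial counterpart of Aldh1l1, is on the minus strand of chromosome 10 (83487450 to 83534140, 23 exons, 6027 nt). It had the widest range of the 8 genes among those detected in every library, with an FPKM of 24.9 in MEFs, 0.878 in iPSCs, 0.277 in mESCs, 0.352 in NTC and 0.223 in shGldc. MEFs had about 3692 fragments, iPSCs about 117.4 and the V6.5 libraries about 38.7 to 61.6. MEFs were 90.1-fold above mESCs (log2 ratio -6.05 for mESCs over MEFs, counting interval 66.3 to 125.7 fold) and 28.4-fold above iPSCs (-4.68). On the log2(FPKM + 0.1) scale these ratios correspond to 66.4-fold and 25.6-fold. The summed FPKM of the fibroblast markers was 55.7 in mESCs, 24.8 in iPSCs, 13.5 in NTC and 7.75 in shGldc, and its part in the low Aldh1l2 values was not tested. Of its exon bases, 17.5% overlap D10Wsu102e on the opposite strand, which had a level of 10.7 FPKM in MEFs, 11.9 in iPSCs and 12.4 in mESCs and was higher in the second table. No strand setting is given for the counting, so the part of the overlap in the low Aldh1l2 values cannot be told apart.

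By counts, 3 of 8 members (37.5%) were higher in mESCs than in MEFs and 2 (25%) were lower, against 30.3% and 23.3% of the 12840 genes tested. In iPSCs over MEFs the counts were again 3 and 2, against 31.5% and 21.3% of 13032 genes. These totals are near the background, so they say nothing particular of the 8 genes as a set. The split lay between the compartments: all 3 higher genes were cytosolic and both lower genes were mitochondrial, in either comparison. The median log2 ratio in mESCs over MEFs was 2.97 for the cytosolic and -0.30 for the mitochondrial members. In iPSCs over MEFs it was 2.75 and -0.15.

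**Figure D2:**
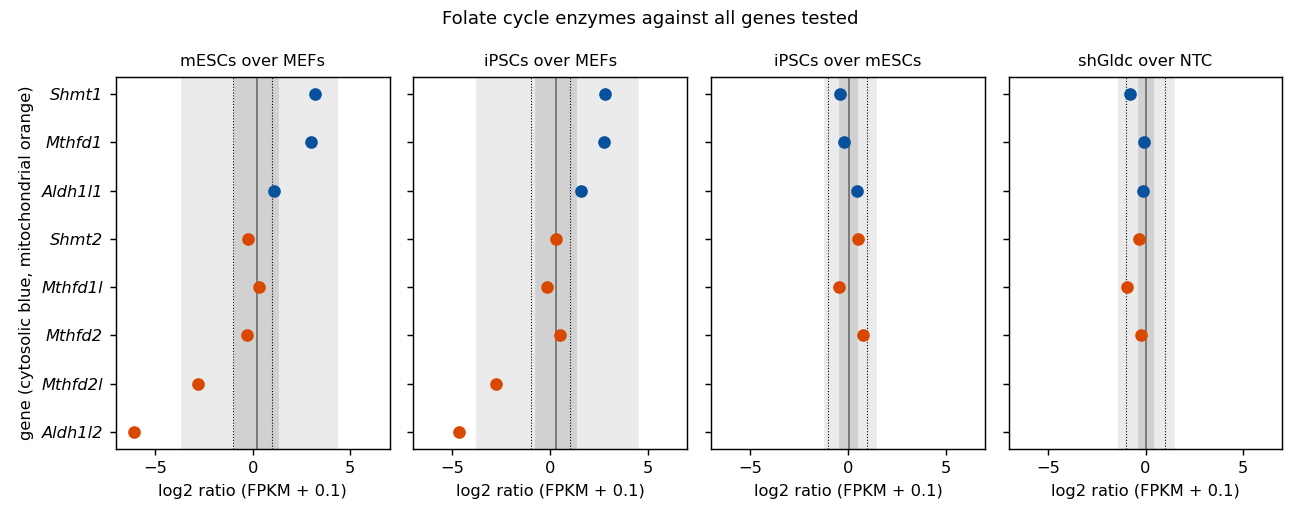
Log2 ratios of the 8 genes in the comparisons of the study, on a log2(FPKM + 0.1) scale, with 1 point a gene that passed the filter, dotted lines at 2-fold, and a grey line and bands for the median and the central 50% and 90% of all genes tested. The cytosolic genes lay to the right of the 2-fold line over MEFs, with Aldh1l1 in mESCs at 1.08, and Mthfd2l and Aldh1l2 lay far to the left.

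The balance of the compartments therefore differed between MEFs and the pluripotent libraries. The mitochondrial members held 87.4% of the summed FPKM of the 8 genes in MEFs, 54.5% in iPSCs, 41.7% in mESCs, 36.9% in NTC and 36.4% in shGldc. MEFs were highest, iPSCs were between, and the 3 V6.5 libraries were lowest. mESCs and NTC, controls of the same line, were 4.75 percentage points apart. Without the Shmt pair the share was 31.8% in mESCs, 31.4% in NTC and 25.8% in shGldc, so which V6.5 libraries lay closest depended on that pair.

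The cytosolic sum was 37.4 in MEFs, 243.4 in iPSCs, 287.6 in mESCs, 329.9 in NTC and 256.1 in shGldc. The mitochondrial sum was 259.7 in MEFs, 291.0 in iPSCs, 205.4 in mESCs, 193.0 in NTC and 146.5 in shGldc. Most of the difference between MEFs and the other libraries was thus in the cytosolic sum. Mitochondrial transcripts outnumbered cytosolic ones 6.95-fold in MEFs and 1.20-fold in iPSCs, and they were the minority in all V6.5 libraries, with ratios of 0.714, 0.585 and 0.572 in mESCs, NTC and shGldc. The slight majority in iPSCs did not hold without the Shmt pair (43.0%), without Mthfd2 (42.4%) or as a share of fragments (47.0%). mRNA levels do not give protein or flux, neither of which was measured in these files.

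**Figure D3:**
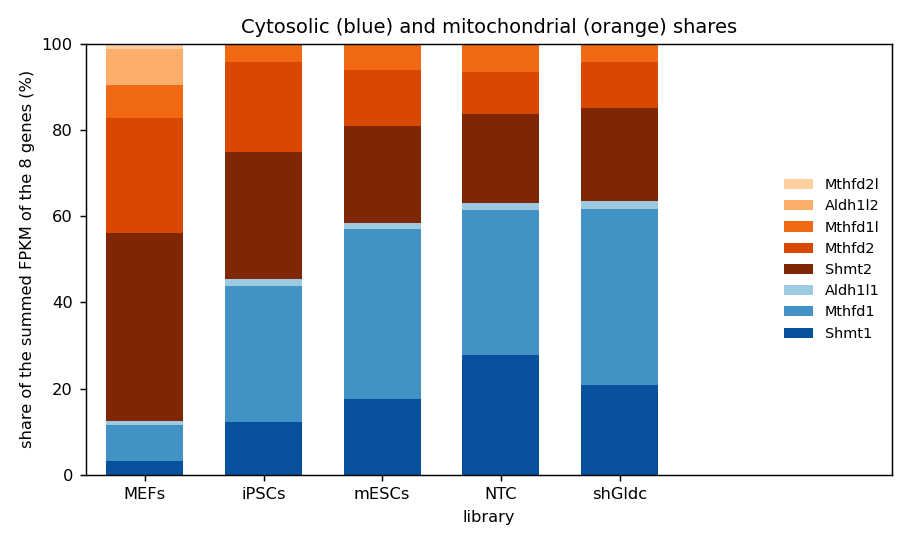
Share of the summed FPKM of the 8 genes held by each gene, in percent, with 1 stacked bar a library starting at 0. The mitochondrial genes took 87.4% of the bar in MEFs, 54.5% in iPSCs and 36.4% to 41.7% in the V6.5 libraries.

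A few genes made up these shares. In MEFs, Shmt2 held 43.6% and Mthfd2 26.5% of the summed FPKM, while Mthfd1 held 8.34% and Shmt1 3.17%. In mESCs, Mthfd1 was first with 39.4%, followed by Shmt2 with 22.6%, Shmt1 with 17.5% and Mthfd2 with 13.0%. Aldh1l2 held 8.39% in MEFs and 0.0561% in mESCs. Some neighbours in the order of levels lay close to each other: Aldh1l2, Mthfd1 and Mthfd1l were at 24.9, 24.8 and 23.1 FPKM in MEFs, and Shmt2 and Shmt1 were at 86.6 and 84.2 in shGldc.

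Each step was also followed as a ratio of the mitochondrial to the cytosolic enzyme within a library, which does not depend on how libraries were scaled. For serine hydroxymethyltransferase, Shmt2 over Shmt1 was 13.8 in MEFs, 2.38 in iPSCs, 1.29 in mESCs, 0.748 in NTC and 1.03 in shGldc. The ratio was 10.7-fold lower in mESCs than in MEFs and 5.78-fold lower in iPSCs. The V6.5 libraries lay around equal levels, on both sides of it.

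For the dehydrogenase step, the sum of Mthfd2 and Mthfd2l over Mthfd1 was 3.31 in MEFs, 0.668 in iPSCs, 0.332 in mESCs, 0.291 in NTC and 0.260 in shGldc. This ratio was above 1 in MEFs alone among the 5 libraries. Mthfd2 made up nearly all of the sum, at 25.1 times Mthfd2l in MEFs, 292.5 times in iPSCs, 173.3 times in mESCs and 160.0 times in NTC.

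For the formate step, Mthfd1l over Mthfd1 was 0.934 in MEFs, 0.124 in iPSCs, 0.150 in mESCs, 0.187 in NTC and 0.104 in shGldc. Synthetase transcripts were close to equal between the compartments in MEFs and mostly cytosolic elsewhere. Mthfd1 enters both of the last ratios, so these ratios share its values.

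For formyl-THF dehydrogenase, Aldh1l2 over Aldh1l1 was 7.82 in MEFs, 0.0908 in iPSCs, 0.0404 in mESCs, 0.0404 in NTC and 0.0285 in shGldc. The pair was turned over between MEFs and the pluripotent libraries: Aldh1l2 was the more abundant in MEFs, and Aldh1l1 was 11.0 to 35.0 times as abundant in the other libraries. This was the widest difference of the pairs, at -7.13 on the log2(FPKM + 0.1) scale in mESCs over MEFs and -6.25 in iPSCs over MEFs.

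**Figure D4:**
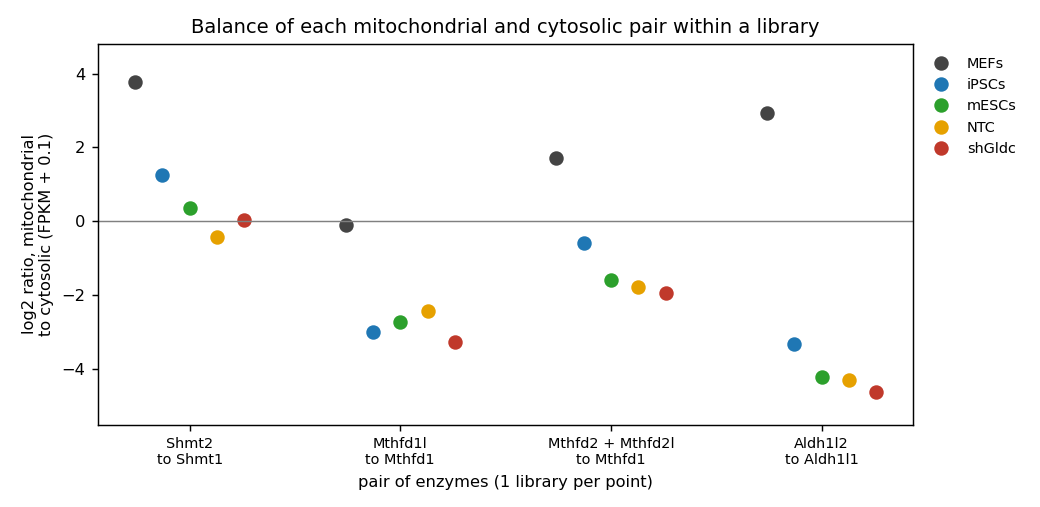
Log2 ratio of the mitochondrial to the cytosolic enzyme of each pair in the 5 libraries, on a log2(FPKM + 0.1) scale, with 1 point a library and 0 marking equal levels. MEFs were the highest point of every pair, and the Aldh1l2 and Aldh1l1 pair crossed 0 with a ratio of 7.82 in MEFs against 0.0285 to 0.0908 elsewhere.

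Between the pluripotent lines, iPSCs and mESCs, no member that passed the filter was 2-fold apart. Of the 8 genes, 6 passed, and 0 were higher and 0 lower, against 10.1% and 7.44% of 12323 genes tested. The mitochondrial genes Mthfd2 and Shmt2 were 1.74-fold (log2 0.80) and 1.41-fold (0.50) higher in iPSCs, whereas Mthfd1l was at -0.48. Of the cytosolic genes, Aldh1l1 was at 0.49, Mthfd1 at -0.21 and Shmt1 at -0.38. Aldh1l2, below the filter, was 3.17-fold higher in iPSCs (0.878 against 0.277, counting interval 2.21 to 4.65 fold).

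Mthfd2 and Shmt2 are among the genes known to be induced through the stress factor ATF4, as are genes of serine synthesis and amino acid supply. Whether other members belong to this response was not examined. In a list of 11 genes, Atf4 itself and 10 others of its response, 10 passed the filter and 8, Atf4 among them, were at least 2-fold higher in iPSCs than in mESCs, against 10.1% of all genes, with a median log2 ratio of 1.52. Ddit3, a stress transcription factor, was highest at 3.13 and Phgdh, the first enzyme of serine synthesis, was lowest at -0.05. Psat1 was at -0.04, and Slc7a11, below the filter, was at -1.34. Against MEFs, 6 of the 11 were lower and 0 higher in mESCs (median -1.39), and 1 was lower and 2 higher in iPSCs (0.09). Of all genes, 23.3% were lower and 30.3% higher in mESCs, and 21.3% and 31.5% in iPSCs, so the counts in iPSCs were not above the background. The highest and lowest genes over MEFs were Asns (0.35) and Ddit3 (-3.97) in mESCs, and Asns (1.63) and Slc7a11 (-3.21) in iPSCs. In shGldc over NTC, 2 of 10 were higher and 0 lower, against 8.97% and 7.68% of all genes, with Atf3 highest at 3.94 and Psat1 lowest at -0.44, while Shmt2 and Mthfd2 were at -0.32 and -0.26. In NTC over untreated V6.5, 3 of 10 were lower and 0 higher, against 10.3% and 4.99%, with Asns highest at 0.66 and Atf3 lowest at -3.50. The part of these genes in the levels of Mthfd2 and Shmt2 was not tested.

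Knockdown of Gldc asked what loss of glycine cleavage does in V6.5 cells. Gldc itself was at a log2 ratio of -5.11 in shGldc over NTC. All 6 members that passed the filter had values below 0, none past the 2-fold line, against 8.97% higher and 7.68% lower of 11969 genes tested, of which 47.2% were below 0. Their median was -0.29, beside 0.04 for all genes.

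The largest differences were those of Mthfd1l, which went from 32.9 to 17.0 FPKM (1.94-fold lower, log2 -0.95, counting interval 1.83 to 2.05 fold), and Shmt1, which went from 145.1 to 84.2 FPKM (1.72-fold lower, -0.78). Both lie inside the 2-fold line. The remaining log2 ratios were -0.32 for Shmt2, -0.26 for Mthfd2, -0.15 for Aldh1l1 and -0.10 for Mthfd1. Mthfd2l went from 0.318 to a listed 0, where 3 fragments would be an FPKM of 0.0484, and Aldh1l2 went from 0.352 to 0.223. Low values were scarce in this table, so a listed 0 does not show absence.

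A second control of the same line showed how far libraries of V6.5 cells lay apart. In NTC over untreated V6.5 the log2 ratio was 0.75 for Shmt1, 0.34 for Aldh1l1, 0.18 for Mthfd1l, -0.04 for Shmt2, -0.14 for Mthfd1 and -0.33 for Mthfd2, so 0 members were past the line, against 4.99% higher and 10.3% lower of 12048 genes. Across all genes the spread of this ratio, as a robust SD, was 0.59, part of which can come from the separately made tables.

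Shmt1 was therefore about as far apart between the controls as between shGldc and NTC. In shGldc over untreated V6.5, Shmt1 was at -0.04, Mthfd1 at -0.24 and Aldh1l1 at 0.19, while Mthfd1l was at -0.77, Mthfd2 at -0.59 and Shmt2 at -0.36. No member passed the line there, against 9.89% higher and 13.9% lower of 12237 genes. The value of Mthfd1l lay at the 8.24th percentile of the genes tested in shGldc over NTC and at the 18.4th in shGldc over untreated V6.5, where the robust SD was 0.74. Within shGldc, the Mthfd1l over Mthfd1 ratio was 1.80-fold lower than in NTC and 1.44-fold lower than in untreated V6.5, and the mitochondrial share of the 8 genes was 36.4% against 36.9% in NTC and 41.7% in untreated V6.5, and 25.8% against 31.4% and 31.8% without the Shmt pair.

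The other folate genes were read from a list of 23, covering uptake and storage, use of the carbon units, and glycine cleavage. In mESCs over MEFs, 20 passed the filter, 8 were higher and 2 lower, with a median log2 ratio of 0.57, beside 30.3% and 23.3% of all genes and their median of 0.25. In iPSCs over MEFs, 21 passed, 7 were higher and 3 lower, with a median of 0.50, beside 31.5% and 21.3% and a median of 0.31. As shares these were 40% higher and 10% lower in mESCs, which was not tested against the background. In iPSCs they were 33.3% and 14.3%, near the background. Tyms in mESCs lay near the 2-fold line, at a log2 ratio of 1.02. The higher genes in mESCs were Gldc, Amt and Gcsh of the glycine cleavage system, the folate receptor Folr1, Fpgs, which adds glutamates to folate, the purine enzyme Gart, thymidylate synthase Tyms and Mthfs. The higher genes in iPSCs were Gldc, Amt, Folr1, Fpgs, Gart, Dmgdh and Mtrr, a reductase of the methionine cycle. Sardh, a mitochondrial sarcosine dehydrogenase, and Folr2 were lower in mESCs, and Sardh, Folr2 and Mthfsl in iPSCs.

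In uptake, Folr1 was at a log2 ratio of 5.05 in mESCs and 5.18 in iPSCs over MEFs. Among the genes that use folate, Gart was highest in mESCs at 2.67, and Dmgdh, a dehydrogenase of dimethylglycine listed at 0 in MEFs, had an FPKM of 2.1 in iPSCs, 0.0538 in mESCs, 3.41 in NTC and 2.5 in shGldc, so untreated V6.5 cells stood apart from the other V6.5 libraries. Sardh went the other way, from 8.61 FPKM in MEFs to 0.0641 in iPSCs and 0.154 in mESCs. In glycine cleavage, Dld, a subunit shared with other dehydrogenase complexes, was lowest over MEFs, at -0.05 in mESCs and 0.08 in iPSCs.

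In shGldc over NTC, 19 of the 23 passed the filter, 2 were higher, 1 was lower and the median log2 ratio was -0.22. Against these counts stand 8.97% higher and 7.68% lower of all genes, so they say nothing particular of the list. The higher genes were Folr1 and Slc46a1. Folr1 went from 63.4 to 201.0 FPKM, and Slc46a1, the proton-coupled folate transporter, from 8.59 to 29.7 (log2 1.78). The reduced folate carrier Slc19a1 stood at 14.3 in NTC and 10.9 in shGldc (-0.40), and the genes of uptake and storage had a median of -0.12. The lower gene was Gldc. Fpgs (-0.68) and Gart (-0.77) were lowest among the genes of storage and use, and Tyms was at 0.53. Between iPSCs and mESCs, 1 of 19 (Dmgdh) was higher and 2 lower, and in NTC over untreated V6.5, 1 (again Dmgdh) was higher and 0 lower. Of all genes, 10.1% and 7.44% were higher and lower in the former and 4.99% and 10.3% in the latter, so these counts too say nothing particular of the list.

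**Figure D5:**
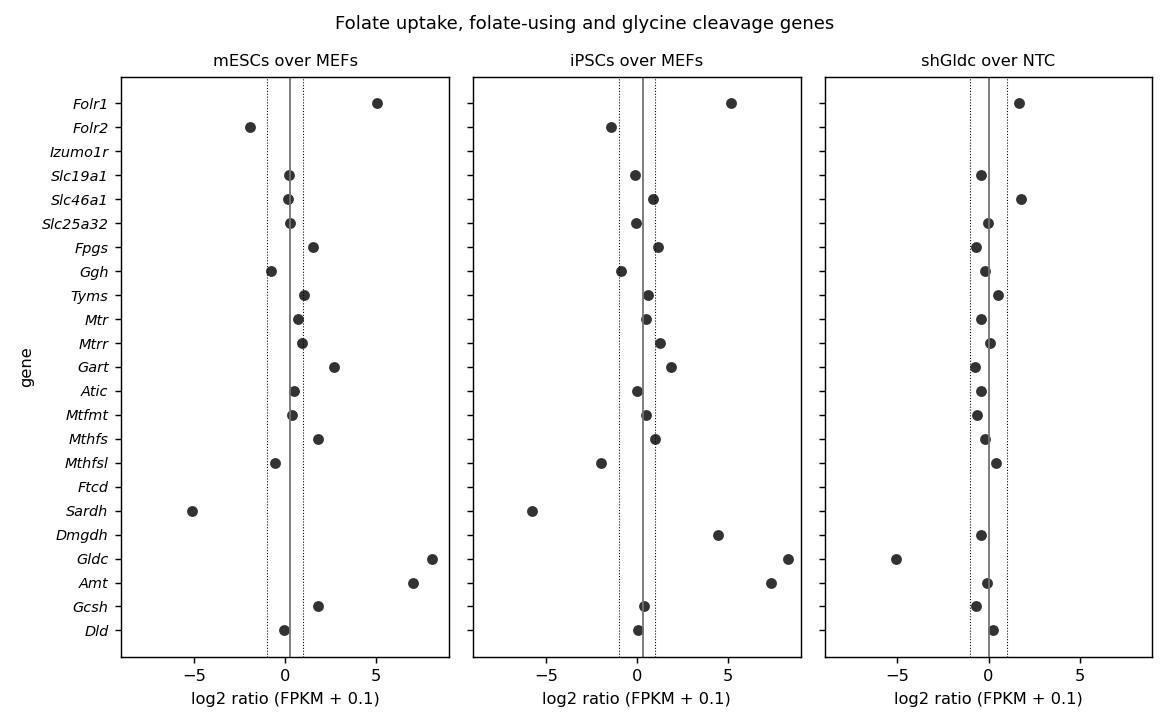
Log2 ratios of the 23 other folate genes, on a log2(FPKM + 0.1) scale, with 1 point a gene that passed the filter, dotted lines at 2-fold and a grey line at the median of all genes. Folr1 lay above 5 over MEFs in both pluripotent lines, and Folr1 and Slc46a1 were the points above the 2-fold line in shGldc over NTC.

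Most proliferation genes were higher beside the cytosolic members in the comparisons with MEFs. Of 12 such genes, 11 were at least 2-fold higher in mESCs than in MEFs (median log2 ratio 1.81, Mcm5 highest at 3.02 and Mki67 lowest at 0.30) and 9 in iPSCs (1.59), beside 30.3% and 31.5% of all genes. None was 2-fold apart in iPSCs over mESCs (median -0.38) or in shGldc over NTC (-0.16), where 10.1% and 8.97% of all genes were higher and 7.44% and 7.68% lower. Birc5 and Top2a were highest and lowest in shGldc over NTC, at 0.15 and -0.58. The macrophage genes passed the filter mostly through MEFs alone, so lower values in mESCs and iPSCs were close to fixed and are not counted. Cd68, which passed in each library, was at -1.04 in mESCs and 0.09 in iPSCs over MEFs. The part of the proliferation or macrophage genes in the members' ratios was not tested.

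Finally, each member was matched with the genes whose profile over the 5 libraries was most alike, by the root mean square difference of the centred log2(FPKM + 0.1) values among 13655 genes. With 5 points many profiles are alike, and the number of genes within 0.5 was 336 for Shmt1, 823 for Mthfd1, 3539 for Aldh1l1, 3935 for Shmt2, 3150 for Mthfd1l, 2200 for Mthfd2, 53 for Mthfd2l and 15 for Aldh1l2. The profile of Mthfd2l includes its listed 0 in shGldc, so its count and its nearest genes rest on that value. The nearest genes to Aldh1l2 were Gfra1 (0.293), Epha3 and Tnfrsf11b, and those to Mthfd2l were Gas6, Frmd4a and Dlg4. The nearest to Shmt1 were Myo5c (0.0375), Kifc2 and Map4k1, to Mthfd1 Prkaa2, Fmn2 and Acp6, and to Aldh1l1 Ccnt1, Ubtf and Rcc2. Some of these were very low in MEFs, at an FPKM of 0.135 for Myo5c, 0.0868 for Prkaa2 and 0.0536 for Fmn2. Where a value is that low, the added 0.1 shapes the likeness. Shmt2 was nearest to Hsdl2, Tmem141 and Myo1e, Mthfd1l to Dnajc16, Akr1b3 and Primpol, and Mthfd2 to Dusp22, Nars (0.0739) and Akap11.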

How the data were processed

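Per the study's methods, RNA was extracted with TRIzol, sequenced on an Illumina HiSeq instrument, mapped to mm10 with TopHat2, and assembled and quantified with StringTie and Ballgown. The submitters' processing notes name TopHat2 2.1.0, StringTie 1.3.4d and SAMtools 1.7, and list mm9 beside mm10. The annotation and strand setting are not given in the sources used here. The authors deposited gene-level FPKM values in 2 tables, and any further normalization is not given in the sources used here.

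Values were analysed with Python 3.11.15, numpy 2.4.6, pandas 2.3.3 and scipy 1.17.1, and plotted with matplotlib 3.10.9. Log2 ratios are differences of log2(FPKM + 0.1). Genes that reached an FPKM of 1 in either library compared were tested, and a 2-fold line was used for counts. Ratios to untreated V6.5 cells for NTC and shGldc cross tables that were made separately. Depth was estimated from the step of low FPKM values times transcript length over genes with a single transcript, using GENCODE M21 models, and gave exact counting intervals of 95% and a floor of 3 fragments. Both cover counting error only. Gene coordinates, exon counts and transcript lengths come from the same models, and promoters from RefSeq. The counting and step searches were tested on simulated data.

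All 8 members, the targeted gene Gldc, the 3 genes most alike each member and, by the rule, the highest and lowest gene of each folate, ATF4 and proliferation list in each comparison were to be named, of which some are not printed. Other genes past the line in the list of 23 other folate genes, Slc19a1, Atf4, D10Wsu102e, Smcr8, Gm14942 and Gm15544 were named after their values were seen. The joint count of CCAAT and GGGCGG was not in the plan. The members and lists were chosen with earlier results of these data known, and some genes of that list are not reported here. Alternatives were pseudocounts, rescaling, centring, filters, another line, another control and shares without a pair.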

Additional observations from a re-analysis of the deposited data

Results flagged for a closer look

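For 3 mitochondrial members the log2 ratio to MEFs had opposite signs in the pluripotent lines, over a shared MEF library. Shmt2 was at -0.22 in mESCs and 0.28 in iPSCs, Mthfd1l at 0.33 and -0.15, and Mthfd2 at -0.30 and 0.50. With equal FPKM sums or centring, Shmt2 was at -0.46 in mESCs and -0.03 in iPSCs, so its signs no longer differed. With 1 library a group the difference was not tested, and all 6 values as reported lie inside the 2-fold line.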

How the results depend on the processing

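Alternatives were run for the 8 members alone. No member past the 2-fold line changed direction under the alternatives run. Inside it, Shmt2 in iPSCs over MEFs went from 0.28 to -0.03 with equal FPKM sums or centring, and Aldh1l1 in shGldc from -0.15 to 0.19 with untreated V6.5 cells as control. Of 118 recomputed log2 ratios of members 113, and of 58 recomputed counts 52, stayed close to the reported values, as did 41 of 48 pair ratios, but 13 of 15 mitochondrial shares moved. Close meant within 0.59 for a log2 value, 1.5 times for a count and 4.75 points for a share, so the fall from 3 to 2 higher members in mESCs over MEFs, with a pseudocount of 1, equal sums or centring, counts as close. With an FPKM of at least 5 required, 1 member was lower in each comparison with MEFs. Without a filter, or with a 1.5-fold line, 1 member was higher in iPSCs over mESCs. In shGldc over NTC, 1 was lower without a filter and 2 with the 1.5-fold line. The mitochondrial share depended on the genes included. Without the Shmt pair it was 82.3% in MEFs, 43.0% in iPSCs, 31.8% in mESCs, 31.4% in NTC and 25.8% in shGldc. Without Mthfd2 it was 42.4% in iPSCs, 32.9% in mESCs, 30.1% in NTC and 28.8% in shGldc. As a share of fragments it was 47.0%, 35.7%, 32.1% and 30.6% in the same order. A pseudocount of 1 moved ratios that rest on low values: Aldh1l2 over Aldh1l1 was then at a log2 of -2.51 in iPSCs, -2.62 in mESCs, -2.84 in NTC and -2.85 in shGldc, and Mthfd2 over Mthfd2l at 6.35 in iPSCs, 5.57 in mESCs and 5.30 in NTC. Under it the log2 ratios to MEFs of Mthfd2l were -1.60 in mESCs and -1.58 in iPSCs, and those of Aldh1l2 -4.34 and -3.79. Aldh1l1 in mESCs over MEFs was at 0.91 with it, and with equal FPKM sums at 0.85, both under the 2-fold line. With untreated V6.5 cells as control, Shmt1 in shGldc was at -0.04. No paired analysis was possible because each group was 1 library.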
